A study of Mus musculus with 9 samples.

Results

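Hippocampus from mouse pups that took in perfluorooctane sulfonate (PFOS) with the milk on postnatal days 1 to 7 was compared with hippocampus from control pups. The comparison uses 6 of the 9 samples of the series: 3 labelled PFOS P1-7 and 3 labelled control. Both groups were wild type, and tissue was taken at postnatal day 21. The dams of the exposed pups received 1 mg/kg of PFOS each day by gavage on days 1 to 7, and the control samples carry the treatment label sham. The third group of 3 samples, exposed on days 8 to 14 (PFOS P8-14), entered the same fit and helped to estimate the spread. PFOS P1-7 was also compared with it. The study asked which postnatal window is sensitive to PFOS. Poly(A) RNA of the whole tissue was sequenced, and the deposited values are TPM, a transcript abundance scaled by length and library total, for 23412 gene symbols. A gene was tested if 3 or more of the 9 samples reached 1 TPM, a rule met by 14336 genes. The labels do not say whether samples are separate animals or litters, so p-values measure only the spread between these samples. Because TPM hold no read totals, sequencing depth is unknown here.

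PFOS is a persistent perfluorinated surfactant that passes from dam to pup in milk. The hippocampus is a cortical structure for spatial and episodic memory, with pyramidal neurons in the CA fields and granule neurons in the dentate gyrus. During the first postnatal weeks its granule neurons are still being made, synapses form and axons are myelinated. Ribosomal protein genes and nuclear genes for mitochondrial proteins have short, abundant transcripts. Ion channel, adhesion and chromatin genes have long ones.

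The samples carried the marks of male hippocampus with a variable amount of choroid plexus. Xist, which is expressed from the inactive X chromosome, did not exceed 0.02 TPM in any of the 6 libraries. Ddx3y, on the Y chromosome, was present at 23.1 to 28.3 TPM in control and at 32.9 to 36.1 TPM after exposure (log2 difference 0.39, adjusted p = 0.181 in limma). Prox1, a granule neuron marker, was present at 17.1 to 51.5 TPM, and Tcf7l2, a thalamic marker, at 3.86 to 7.84 TPM. Between 13810 and 14172 symbols per library reached 1 TPM. The 16 choroid plexus and ependyma markers summed to 216, 200 and 11125 TPM in control replicates 1, 2 and 3 and to 13015, 232 and 11402 TPM in PFOS P1-7 replicates 1, 2 and 3. In bulk tissue, fewer cells of a type and less RNA per cell cannot be told apart.

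No gene passed the test. limma called 0 of 14336 genes at an adjusted p below 0.05 (0% of those tested), and the lowest adjusted p was 0.181. Without adjustment, 1797 genes (12.5%) were higher and 830 (5.79%) were lower in PFOS P1-7 at p below 0.05. This split turned with the scaling: median-of-ratios scaling gave 1031 higher and 1417 lower, and quantile normalization 1043 and 1329. The 3 exposed values lay above all 3 control values for 1761 genes (12.3%) and below them for 940 (6.56%). Of all tested genes, 65.5% had a positive and 34.5% a negative log2 difference, with a median of 0.09. Differences are on the log2(TPM + 1) scale throughout, which understates those of low genes. They had a median standard error (SE) of 0.13. Their 95% confidence intervals reached a median of 0.29 to either side. Against the later window, PFOS P8-14, limma called 0 genes as well (smallest adjusted p = 0.9998), and 158 genes had an unadjusted p below 0.05.

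One control library lay among the exposed ones. Whether it is labelled correctly cannot be settled from the values, and every difference from control, with or without it, depends on that label. The median absolute log2 difference between control replicates 2 and 3 was 0.11, whereas control replicate 1 stood 0.23 and 0.24 from them. The same library stood 0.14, 0.15 and 0.18 from PFOS P1-7 replicates 1, 2 and 3, which differed among themselves by 0.13 to 0.16. The SD within the group was larger in control than in PFOS P1-7 for 63.0% of genes, and control replicate 1 was the control farthest from the other controls for 56.0% of genes. In 5269 genes both control replicates 2 and 3 lay below all 3 exposed libraries. Control replicate 1 was also below them in 1761 of these, within their range in 2400 and above it in 1108. In the opposite direction, 2058 genes had control replicates 2 and 3 above all exposed libraries, with control replicate 1 above in 940, within in 754 and below in 364. Counts of genes whose groups do not overlap are therefore also counts of genes in which this library took the side of the other controls.

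**Figure D1:**
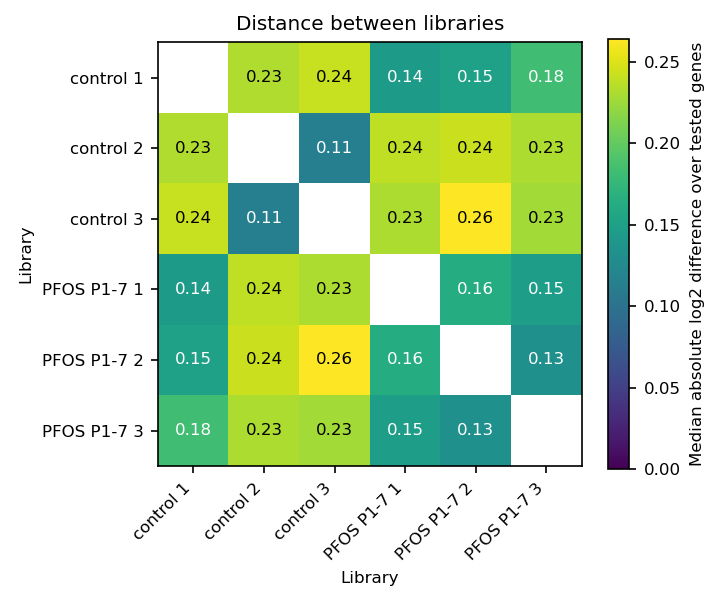
Median absolute log2 difference over the 14336 tested genes for each pair of the 6 libraries (colour scale from 0, values in the cells). Control replicate 1 is nearer to the 3 PFOS P1-7 libraries (0.14 to 0.18) than to the other 2 controls (0.23 and 0.24).

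The 10 lower genes with the smallest p had log2 differences of -0.83 to -0.38. Choosing genes by p favours groups that do not overlap and replicates that lie close together, so neither is a further result here. Of all tested genes, the groups were apart downward in 6.56% and upward in 12.3%. Npm3, a nucleoplasmin-family gene of the nucleolus on chromosome 19 (45747734 to 45749565, GRCm38.p6, the mm10 assembly), stood at 28.4, 37.7 and 35.8 TPM in control replicates 1, 2 and 3. It stood at 19.2, 18.6 and 18.0 TPM in the PFOS P1-7 replicates. All exposed libraries were lower than all controls, with a clear gap. The log2 difference was -0.83 ± 0.11 (SE; adjusted p = 0.181 in limma). Gng13, which encodes a G protein gamma subunit, stood at 67.3, 62.3 and 49.4 TPM in control and at 36.5, 32.6 and 34.3 TPM after exposure. Again the groups did not overlap, and control replicate 1 was the highest of the 6. Its log2 difference was -0.76 ± 0.13 (adjusted p = 0.181 in limma). Against PFOS P8-14 its log2 difference was -0.41 (unadjusted p = 0.00938, adjusted p = 0.9998 in limma).

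Ttc9b, a tetratricopeptide repeat gene, had a mean of 219 ± 24.3 TPM in control and 137 ± 7.47 TPM after exposure (SD, n = 3). Ndufb5, an accessory subunit gene of respiratory complex I, stood at 206, 238 and 245 TPM in control and at 172, 164 and 167 TPM after exposure. Map1lc3a, which encodes a protein of the autophagosome membrane, stood at 427, 476 and 483 TPM and at 368, 325 and 310 TPM. In these 3 genes every exposed library was below every control library. Emc10, a subunit gene of the endoplasmic reticulum membrane complex, had means of 278 ± 20.7 and 209 ± 2.38 TPM. Tango2, BC056474, Nat14 and Ctla2a completed the 10 genes, with log2 differences of -0.38, -0.51, -0.52 and -0.71. Ctla2a has a close paralog, so its reads may be shared.

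The 10 higher genes with the smallest p had transcripts of 2421 to 9592 bases, against 533 to 2052 bases for the 9 lower ones with a known length. Atp11b encodes a phospholipid flippase, an ATPase that moves lipids between the leaflets of a membrane, on chromosome 3 (35754044 to 35856276). It stood at 44.1, 40.3 and 39.8 TPM in control and at 57.7, 62.0 and 57.7 TPM after exposure. Control replicate 1 was the highest control and still below every exposed library. The log2 difference was 0.51 ± 0.07 (SE; adjusted p = 0.181 in limma). Hspa2, a heat shock protein 70 gene, stood at 85.1, 81.9 and 85.9 TPM in control and at 108, 107 and 108 TPM after exposure. Its difference was 0.35 ± 0.06 (adjusted p = 0.181 in limma).

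Dsp, the desmoplakin gene and a marker of granule neurons, stood at 12.1, 12.1 and 9.85 TPM in control and at 18.3, 17.7 and 18.1 TPM after exposure. Thbs4, which encodes a secreted thrombospondin, stood at 11.5, 11.6 and 10.6 TPM and at 16.3, 17.5 and 17.9 TPM. Kcna1, which encodes an axonal potassium channel, had 57.3, 52.6 and 49.8 TPM in control and 71.5, 71.1 and 72.7 TPM after exposure. Each of these separated the groups, and the 3 exposed libraries lay close together. Both features are favoured by choosing genes by p. Nr4a1, an activity-induced nuclear receptor gene, stood at 49.8, 45.3 and 48.0 TPM in control and at 60.5, 80.2 and 76.0 TPM after exposure. PFOS P8-14 had 57.3, 51.2 and 50.5 TPM of it, and the difference between the windows was 0.43 (unadjusted p = 0.00284, adjusted p = 0.9998 in limma). Of the genes with the smallest p in either direction, Nr4a1 and Gng13 (-0.41) differed most between the windows, and Ccbe1 least (-0.0034). The remaining members were Secisbp2l (0.48), Ubxn2a (0.47), Ccbe1 (0.64) and Man1a (0.70), all on the log2 scale.

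**Figure D2:**
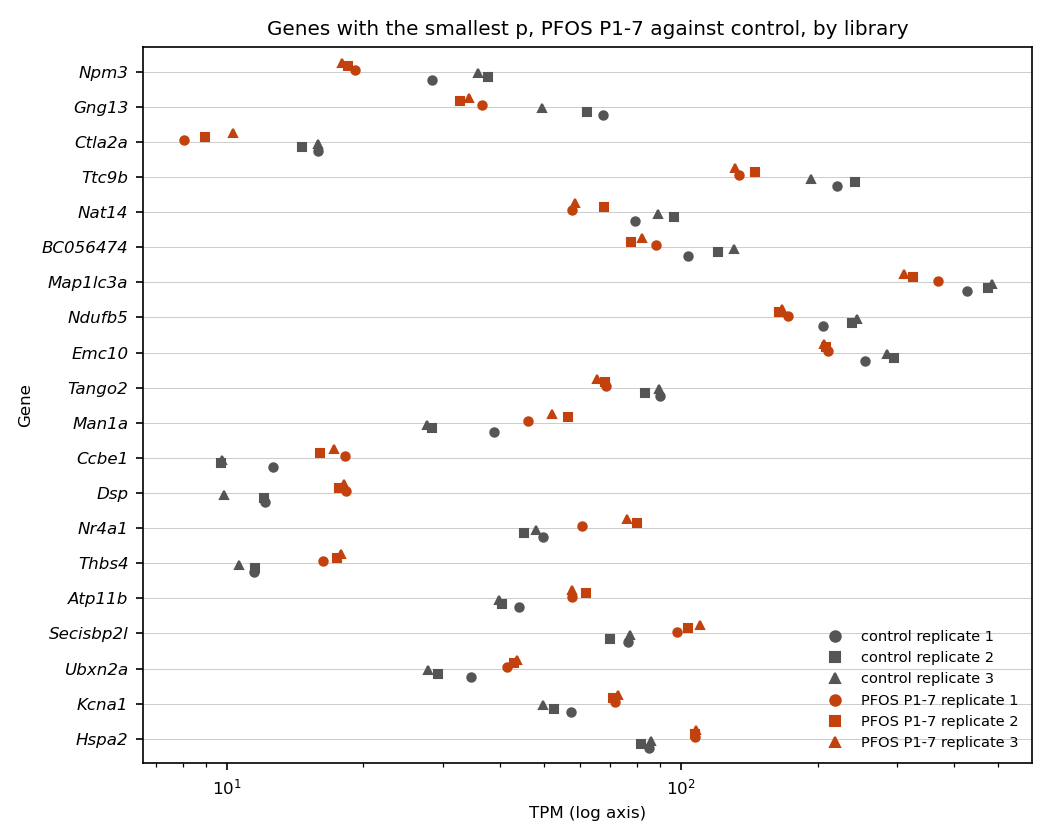
TPM (log axis) of the 10 genes per direction with the smallest p, 1 point per library, grey for control and orange for PFOS P1-7, with symbols for the replicates. The groups do not overlap in any of the 20 genes, which choosing them by p favours. Control replicate 1 is often the control nearest to the exposed libraries, as in Npm3 (28.4 TPM) and Man1a (38.8 TPM).

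Larger differences came with a wider spread, and there the control group was split. Nr4a3, another activity-induced nuclear receptor gene, stood at 49.3, 22.1 and 22.0 TPM in control and at 58.1, 68.2 and 54.1 TPM after exposure. Control replicate 1 was far above the other controls and close to the exposed libraries. The log2 difference was 1.02 ± 0.28 (adjusted p = 0.188 in limma). Mef2a, a transcription factor gene for activity-dependent programmes, stood at 62.2, 30.4 and 30.8 TPM and at 77.2, 81.7 and 73.2 TPM. Egr3, an immediate early transcription factor gene, stood at 77.6, 40.0 and 40.0 TPM and at 82.5, 99.97 and 92.6 TPM. The pattern was the same in Gpr63, Zfp536, Fstl4, Alkbh8, Foxn3 and Strn, with log2 differences of 0.75 to 0.95. Control replicate 1 lay between the other controls and the exposed libraries. Genes in this paragraph were named only if their groups did not overlap, so the rule itself placed control replicate 1 below every exposed library. Agxt2l1 was different: control replicate 2 was the highest control, at 12.4 TPM against 6.05 and 6.23 TPM, and the exposed libraries stood at 25.3, 12.8 and 15.7 TPM.

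Among the lower genes with the largest differences, Ifitm1, an interferon-induced membrane protein gene, stood at 6.57, 12.6 and 14.1 TPM in control and at 4.33, 4.73 and 3.88 TPM after exposure. Dok3, an adaptor gene of immune cells, stood at 8.33, 15.9 and 13.2 TPM and at 3.74, 5.58 and 6.38 TPM. Lst1, expressed in myeloid cells, stood at 16.2, 19.4 and 17.1 TPM and at 8.11, 7.86 and 13.1 TPM. Of the 12 microglia markers 6 were higher and 6 lower, with a median log2 difference of 0.07 (-0.01 with median-of-ratios scaling). At an unadjusted p below 0.05, 4 of them were lower and 1 was higher, against 5.79% and 12.5% of all tested genes. The groups were apart in 3, all lower, against 6.56% of all tested genes. C1qa and C1qb, which encode chains of complement C1q, had differences of -0.32 and -0.39. Tmem91 (-1.09) and the histone gene Hist1h4h (-1.04) were also on this list. Gdf1 had the largest value, -2.40, but it overlaps Cers1 and varied from 22.8 to 106 TPM in control. LOC100861978 and Ccl27b have identical values in all libraries and count as 1 uncertain entry (-0.81). DXBay18, an X-linked multi-copy gene, was listed at 0 in all 3 controls and at 2.43, 2.13 and 2.36 TPM after exposure.

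The difference between the groups ran with transcript length. Genes were divided into 5 equal classes by the length of the principal transcript (GENCODE, matched for 99.1% of tested genes). From the shortest class to the longest, the median log2 differences were -0.10, 0.01, 0.08, 0.14 and 0.22. Of the 2843 genes in the longest class, 2593 were higher and 741 had an unadjusted p below 0.05 in that direction, against 12 in the other. In the shortest class 1851 of 2843 were lower, 498 with an unadjusted p below 0.05. Without the ribosomal protein genes the shortest class had a median of -0.09. Spearman's rho between length and difference was 0.48 across genes, which share the same libraries and are not independent.

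The length trend separated single libraries. Relative to the mean of the 6 libraries, the longest class had a median deviation of -0.20 and -0.23 in control replicates 2 and 3 but of 0.10 in control replicate 1. The exposed libraries had 0.07, 0.18 and 0.09. Control replicate 1 therefore sat among the exposed libraries for long transcripts. Base composition followed another grouping. In the class with the highest GC content, control replicate 1 and PFOS P1-7 replicate 1 stood at 0.07 and 0.08, and the other 4 libraries below 0. By abundance, the median log2 difference was 0.12 for genes of 5 to 10 TPM and -0.05 for the 324 most abundant genes, whose median level was 834 TPM and median transcript length 1420 bases. Protein-coding genes had a median of 0.09 and long non-coding RNAs of 0.02. After each library's trend on this length and on GC content was removed, the medians of the length classes lay between 0.00 and 0.02, which the removal itself brings about. With the trend taken on another length, the median over a gene's protein-coding transcripts, a gradient remained: -0.07, -0.01, 0.00, 0.03 and 0.06 from the shortest class to the longest. The part of library preparation or RNA quality in the trend was not tested.

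**Figure D3:**
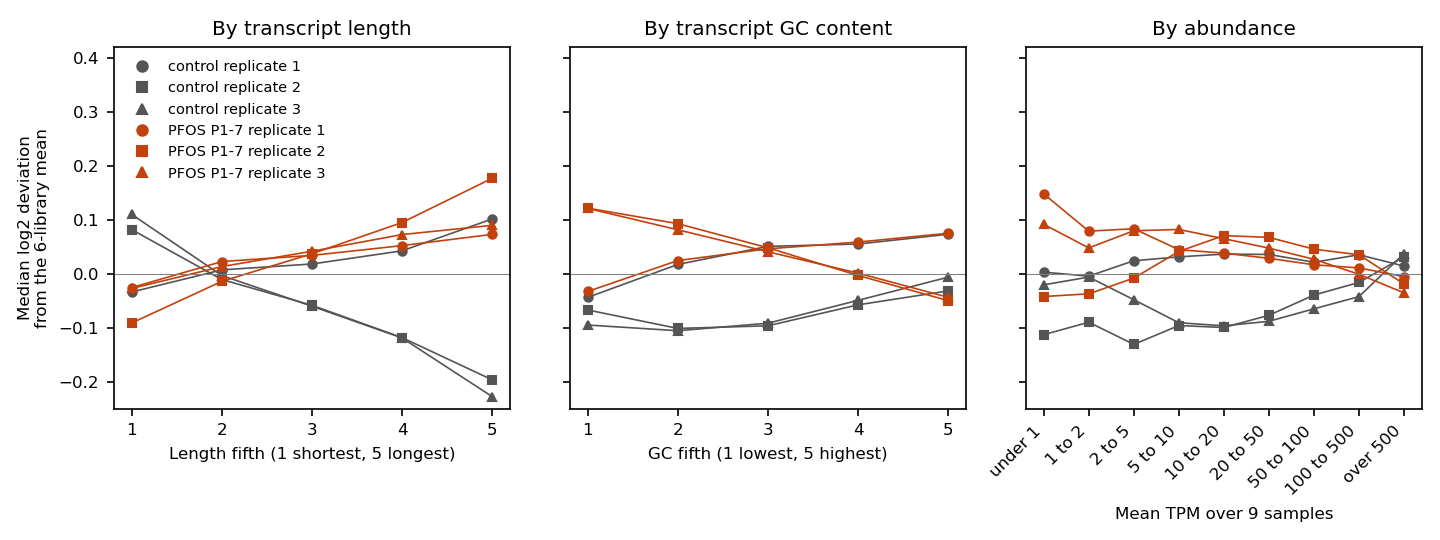
Median log2 deviation of each library from the mean of the 6 libraries, for genes in 5 classes of transcript length, 5 classes of GC content and classes of mean TPM. For the longest transcripts control replicates 2 and 3 stand at -0.20 and -0.23 and the other 4 libraries between 0.07 and 0.18.

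Gene families were read against this background and against the shares over all tested genes. Of all tested genes, 65.5% were higher. At an unadjusted p below 0.05, 12.5% were higher and 5.79% lower. The groups were apart upward in 12.3% and downward in 6.56%. Of 95 symbol patterns, 81 had at least 10 tested members, and 18 of these had a median log2 difference below 0. Families at the low end encode ribosomal, mitochondrial and other small proteins. Those at the high end encode channels, adhesion molecules and large regulators. None of the 16 family medians described here changed sign under median-of-ratios or quantile scaling.

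Ribosomal protein genes were lower almost without exception. Of 46 genes of the large subunit, 45 were lower and 18 had an unadjusted p below 0.05, with a median log2 difference of -0.29. All 32 genes of the small subunit were lower, 14 of them with an unadjusted p below 0.05, and the median was again -0.29. Over all tested genes the median was 0.09. Large-subunit genes made up 3.37, 4.65 and 4.40% of all TPM in control replicates 1, 2 and 3 and 3.22, 3.27 and 3.42% in the PFOS P1-7 replicates. Control replicate 1 was thus level with the exposed libraries, and the difference lay in the other controls. Removing each library's length and GC trend gave medians of -0.17 and -0.13 (all genes 0.01). With length taken as the median over protein-coding transcripts they were -0.26 and -0.23 (all genes 0.00). For other families both values are given in this order, joined by "or".

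Single ribosomal genes differed in how far control replicate 1 departed from the other controls. Rplp1, which encodes an acidic stalk protein, stood at 2100, 2403 and 2065 TPM in control and at 1648, 1230 and 1267 TPM after exposure. Rpl41, the gene of the smallest ribosomal protein, stood at 1589, 2205 and 2067 TPM and at 1372, 1237 and 1347 TPM. Both separated the groups, with log2 differences of -0.67 ± 0.14 and -0.55 ± 0.12. Rps19 did not: control replicate 1 had 288 TPM against 585 and 564 TPM in the other controls, within the exposed values of 249, 256 and 299 TPM. Rpl4 was the single large-subunit gene that was not lower, with 764, 834 and 789 TPM in control and 807, 793 and 798 TPM after exposure.

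Promoter sequence was examined because these genes were lower together. A total of 5 motifs were searched on both strands in the 250 bases before the start site, in 11 gene sets, after the differences were known. The motifs were a cAMP response element (TGACGTCA), an ETS site (CCGGAAG), an NRF1 site, a TATA box (TATAAA) and a GC box (GGGCGG). RefSeq promoters (GRCm38.p6) were matched for 10551 of the tested genes. The ETS letters were found in 14.2% of all promoters, in 10 of 24 of the small subunit (41.7%) and in 8 of 34 of the large subunit (23.5%). They were found in 9.38% of complex I promoters, in 6 of 19 of the Tomm and Timm genes (31.6%) and in 2 of 10 of the Polr2 genes, families that were also lower. They were in 19.0% of promoters of genes lower at an unadjusted p below 0.05 and in 12.9% of those higher. The cAMP response element was in 4 of 34 large-subunit promoters (11.8%), in 1 of 24 of the small subunit and in 3.03% of all. The NRF1 letters were in none of the ribosomal promoters and in 1.79% of all. The GC box was in 63.8% of all promoters, in 68.8% of those of higher genes and in 58.0% of those of lower genes at that threshold. The TATA box was in 7.88, 6.62 and 7.27%. The ETS letters were in 0 of 17 calcium channel, 0 of 11 Krüppel-like factor and 0 of 9 protocadherin promoters. The ETS set was singled out after these shares were seen, and a match describes letters only.

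The 6 promoters below were selected because they hold the ETS letters and their genes were lower at an unadjusted p below 0.05. Each is a window of 80 bases, 5′ to 3′ on the gene's strand, with the match in capitals (CCGGAAG or its reverse complement).
Rps2 (chr17:24719899-24719978, plus strand): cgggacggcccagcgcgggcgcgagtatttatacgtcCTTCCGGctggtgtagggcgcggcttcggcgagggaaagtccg
Rpsa (chr9:120127541-120127620, plus strand): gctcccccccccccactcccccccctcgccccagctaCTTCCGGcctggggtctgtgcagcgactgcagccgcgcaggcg
Rps18 (chr17:33955698-33955777, minus strand): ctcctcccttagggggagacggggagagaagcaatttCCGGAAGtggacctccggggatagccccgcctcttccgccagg
Rpl41 (chr10:128549182-128549261, minus strand): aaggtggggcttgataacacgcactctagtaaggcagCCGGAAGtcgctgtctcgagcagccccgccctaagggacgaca
Rpl27a (chr7:109518989-109519068, plus strand): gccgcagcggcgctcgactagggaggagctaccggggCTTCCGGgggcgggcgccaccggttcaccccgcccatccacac
Polr2f (chr15:79141245-79141324, plus strand): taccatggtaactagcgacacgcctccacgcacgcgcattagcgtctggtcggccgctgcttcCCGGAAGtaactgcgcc
On the log2 scale the genes behind these windows differed by -0.35 (Rps2), -0.35 (Rpsa), -0.27 (Rps18), -0.55 (Rpl41), -0.30 (Rpl27a) and -0.39 (Polr2f).

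Mitochondrial families were lower to a smaller degree. Of 36 complex I genes, 29 were lower, 10 with an unadjusted p below 0.05, and the median was -0.17. Ndufa8 stood at 232, 313 and 292 TPM in control and at 218, 212 and 212 TPM after exposure. The exception at an unadjusted p below 0.05 was Ndufs1, the largest core subunit (0.29), which has a longer transcript (2626 bases) than the family median of 866 bases. Without the length and GC trend the complex I median was -0.02, near the 0.01 of all genes, and leaving out control replicate 1 as well turned it to 0.02. With the median transcript length it was -0.11. Of 22 genes of the Tomm and Timm import machinery, 18 were lower, 8 with an unadjusted p below 0.05, with a median of -0.17 and of -0.10 or -0.15 without the trend. Timm13, a chaperone of the intermembrane space, stood at 149, 174 and 159 TPM in control and at 126, 97.6 and 102 TPM after exposure. Tomm40l, with a 3762-base transcript against a family median of 1542 bases, was lower (-0.44). With the trend on the principal length removed, Tomm40l stood at -0.56. Tomm20, the import receptor with a 4902-base transcript, was higher (0.22).

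RNA polymerase II subunits split by size. Of 13 Polr2 genes 11 were lower, 8 with an unadjusted p below 0.05, and the median was -0.24. Polr2k, a small shared subunit, stood at 115, 133 and 139 TPM in control and at 98.3, 97.4 and 94.2 TPM after exposure. Both members with the longest transcripts were higher. Polr2a, the catalytic subunit, with a transcript of 6740 bases, stood at 51.1, 25.8 and 27.4 TPM in control and at 62.9, 59.6 and 48.5 TPM after exposure. Control replicate 1 lay within the exposed values. Polr2b had a difference of 0.22. For the family median, control replicate 1 lay on the side of the other controls. Controls stood at 0.05, 0.20 and 0.09 from the 6-library mean and exposed libraries at -0.05, -0.13 and -0.15. With the trend removed Polr2a stood at 0.56 (principal transcript length) and the family median at -0.11 or -0.23.

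G protein beta and gamma genes, S100 genes and histone genes completed the low end. Of 17 Gnb and Gng genes 10 were lower, with a median of -0.20 that was -0.18 or -0.16 without the trend. Gng3, the gamma subunit of neurons, had means of 271 ± 15.3 TPM in control and 217 ± 6.11 TPM after exposure, whereas Gng2 and Gnb4 were higher (0.20 each). Gnb2l1, in this set by its symbol alone, encodes the ribosome-associated scaffold Rack1 (-0.21). Of 11 S100 symbols 9 were lower, with a median of -0.31, but 1 of the lower genes had an unadjusted p below 0.05. That gene, S100a10, encodes a partner of annexin A2 and stood at 51.8, 63.5 and 61.3 TPM in control and at 31.0, 43.1 and 34.8 TPM after exposure. S100b, the astrocyte calcium-binding protein gene, had a difference of -0.15 ± 0.07 (adjusted p = 0.291 in limma). S100pbp (0.59), which matches the pattern by symbol but encodes no S100 protein, was the member higher at that threshold. Without the trend the S100 median was -0.14 or -0.25, and the first was 0.00 when control replicate 3 was also left out. Of 34 histone genes 23 were lower, 6 with an unadjusted p below 0.05, with a median of -0.18 and of -0.09 or -0.13 without the trend. Histone medians by library were 0.05, 0.14 and 0.09 in control and -0.07, -0.09 and -0.01 after exposure, so control replicate 1 lay with the controls. H2afv, a variant histone gene, had means of 44.4 ± 1.91 and 34.2 ± 1.39 TPM. Reads of replication-dependent histone genes such as Hist1h4h may be shared between copies.

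At the high end, most families consist of long genes. Of 10 chromodomain helicase genes, all were higher and 6 had an unadjusted p below 0.05, with a median of 0.32 that was 0.09 or 0.14 without the length and GC trend. Chd4, the motor of the NuRD complex, stood at 97.3, 77.7 and 79.1 TPM in control and at 114, 106 and 103 TPM after exposure. Of 11 Dock genes 10 were higher, 6 with an unadjusted p below 0.05, with a median of 0.33 that was 0.11 or 0.08 without the trend. Dock4 stood at 79.8, 54.0 and 53.2 TPM in control and at 88.0, 107 and 88.9 TPM after exposure. Dock1, with less spread among controls, stood at 8.45, 7.19 and 7.33 TPM and at 10.8, 11.2 and 12.5 TPM. The groups did not overlap in any of these 3 genes.

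Calcium and sodium channel genes were mostly higher, and potassium channel genes lay near the values of all genes. Of 22 calcium channel genes 19 were higher, 9 with an unadjusted p below 0.05, with a median of 0.29. The groups were apart upward in 1 of them and downward in 1, against 12.3% and 6.56% of all tested genes. Cacng8, an AMPA receptor auxiliary subunit gene of this family, stood at 257, 188 and 186 TPM in control and at 286, 266 and 248 TPM after exposure. Control replicate 1 was above the lowest exposed library. Control replicate 1 also overlapped the exposed libraries in Cacnb1 (0.33 ± 0.12), and Cacnb3 was the member lower at an unadjusted p below 0.05 (-0.21). Of 10 sodium channel genes 8 were higher, 4 with an unadjusted p below 0.05, with a median of 0.28. Scn8a, a main channel of the axon initial segment, stood at 102, 67.3 and 69.4 TPM and at 103, 114 and 91.2 TPM. Scn4b, an auxiliary subunit gene, had a difference of 0.39 ± 0.16. Without the length and GC trend the calcium channel median was 0.14 or 0.18 and the sodium channel median 0.09 or 0.05. Of 72 potassium channel genes 48 were higher, 8 with an unadjusted p below 0.05, with a median of 0.13.

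Adhesion and guidance families followed. Of 13 contactin and Cntnap genes 12 were higher, with a median of 0.25, but the groups were apart in none. Without the trend it was 0.06 or 0.13, and the first was -0.08 when control replicate 3 was also left out. Cntnap2 stood at 60.5, 36.5 and 35.6 TPM in control and at 61.3, 69.2 and 53.6 TPM after exposure, so that control replicate 1 lay within the exposed range. Cntn1 behaved alike, with 206, 144 and 152 TPM and 198, 226 and 214 TPM. Of 29 semaphorin and plexin genes 22 were higher, 8 with an unadjusted p below 0.05, and the groups were apart in 7. Their median was 0.25, and 0.11 without the trend in both definitions. Sema7a, a membrane-anchored semaphorin gene, stood at 112, 83.5 and 88.7 TPM in control and at 121, 122 and 121 TPM after exposure. Sema3c, a secreted one, had a difference of 0.47 ± 0.14. Of 12 phospholipid flippase genes 10 were higher, with a median of 0.27. Without the trend it was 0.08 or 0.12, and the first was 0.0048 when control replicate 1 was also left out. Beside Atp11b, Atp11a stood at 25.2, 21.0 and 22.5 TPM and at 32.7, 26.3 and 30.9 TPM.

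**Figure D4:**
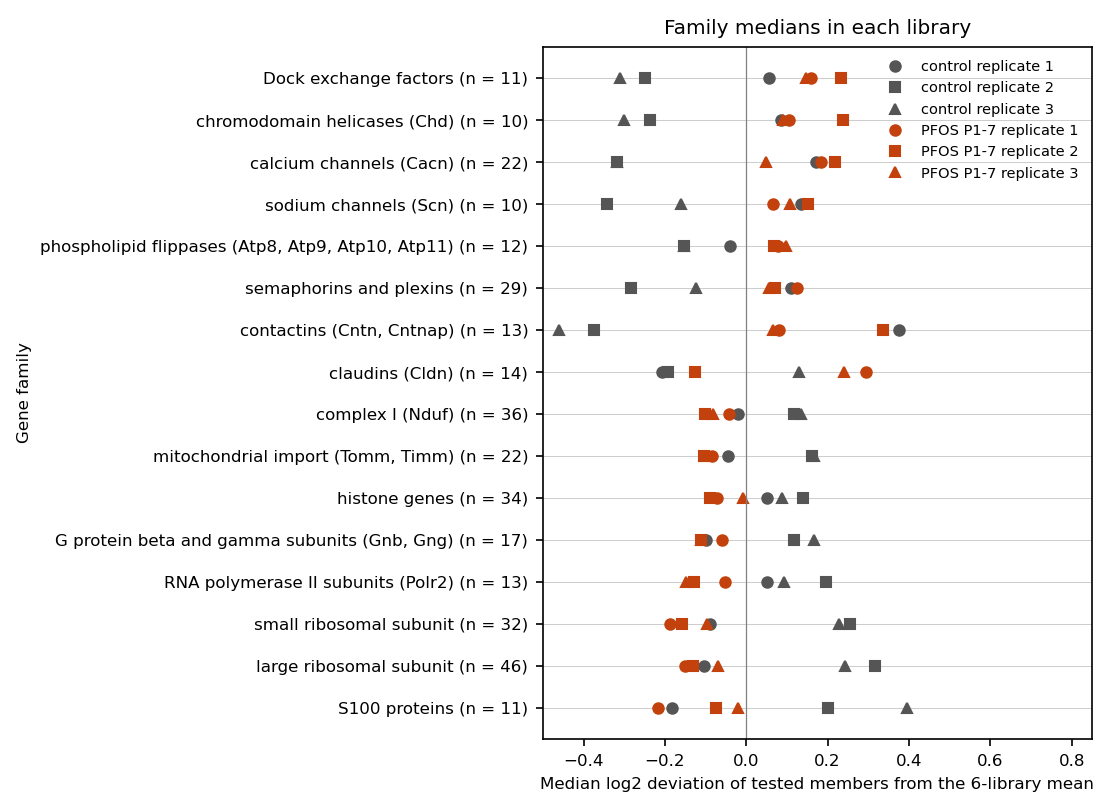
Median log2 deviation of the tested members of each described family from the mean of the 6 libraries, 1 point per library. Control replicate 1 stands near the exposed libraries in most families, as in the large ribosomal subunit at -0.10 against -0.15, -0.13 and -0.07, and away from control replicates 2 and 3 at 0.32 and 0.24.

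Claudins seal tight junctions, and Cldn2 and Cldn1 among them ran with choroid plexus content in the libraries. Of 14 claudin genes 12 were higher, with a median of 0.24, and 0 were higher at an unadjusted p below 0.05. Cldn2 stood at 0.52, 0.36 and 6.30 TPM in control and at 16.5, 0.39 and 19.0 TPM after exposure, high in the same 3 libraries as Ttr. Ttr stood at 52.8, 35.1 and 10420 TPM and at 11626, 39.6 and 10042 TPM. Cldn1 was high in the same libraries (1.06 ± 0.70). Of the 16 choroid plexus and ependyma markers 15 were higher, with a median of 1.53 and 0 at an unadjusted p below 0.05. The part of choroid plexus tissue in the claudin median was not tested. By the naming rule the members with the smallest p were Cldn23 (0.39 ± 0.18) and Cldn12 (0.17 ± 0.09, and -0.01 without the trend and PFOS P1-7 replicate 1). Cldn5, the claudin of brain endothelium, went the other way, with 120, 106 and 122 TPM in control and 73.8, 97.8 and 87.2 TPM after exposure.

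Marker lists for cell types gave a mixed picture. Of 12 granule neuron markers 11 were higher, 8 with an unadjusted p below 0.05. Of all tested genes 65.5% were higher, and 12.5% were higher at that threshold. The remaining marker, Calb1, was lower at the same threshold (-0.42). The list had a median of 0.33 and of 0.18 or 0.22 without the length and GC trend. Prox1 itself stood at 49.7, 27.4 and 17.1 TPM in control and at 45.7, 51.5 and 46.0 TPM after exposure, so control replicate 1 was level with the exposed libraries. For the whole granule neuron list, control replicate 3 was the lowest library. Controls stood at -0.06, -0.01 and -0.42 from the 6-library mean and exposed libraries at 0.10, 0.19 and 0.26. With the trend on the principal length removed, control replicate 2 (0.11) lay above PFOS P1-7 replicates 1 and 2 (0.07 and 0.06). All 12 myelin and oligodendrocyte genes were higher, with a median of 0.25 and 0 at an unadjusted p below 0.05. Mbp, the myelin basic protein gene, stood at 5606, 7168 and 8542 TPM and at 9554, 7472 and 10585 TPM. Control replicate 1 was the lowest library for the myelin list (-0.52 from the 6-library mean), and without it the list median was -0.01. CA1 markers had a median of 0.00 and interneuron markers of 0.03, which became -0.07 and -0.05 with median-of-ratios scaling. CA3 markers had a median of 0.18, which was 0.02 or 0.04 without the trend. Astrocyte markers had a median of 0.10, which was -0.02 or 0.04 without the trend, 0.02 with median-of-ratios scaling and -0.0018 without control replicate 3. Endothelial markers had a median of -0.05, and of 0.04 without control replicate 1.

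Leaving out control replicate 1 turned many differences into calls. limma then called 2017 genes higher (14.1%) and 641 lower (4.47%) at an adjusted p below 0.05. After trend removal in the same fit, 601 were higher (4.23%) and 376 lower (2.65%), and both fits shared 769 genes, 28.9% of the first and 78.7% of the second, all in the same direction. With transcript length defined as the median over protein-coding transcripts, the definition tried first, the same fit called 863 higher and 620 lower. Leaving out that library removes a control that resembled the exposed samples, so these counts describe 2 controls against 3 exposed libraries. Of the ribosomal genes, 31 of the large and 20 of the small subunit were called lower without control replicate 1, and 6 and 5 with the trend removed too. Of the calcium channel genes 12 and 8 were called higher in these fits.

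Single genes stood on both sides of this choice. Npm3 had an adjusted p = 0.00491 without control replicate 1 and 0.00732 with the trend removed too (limma), and a log2 difference of -0.75 there. Man1a and Ubxn2a, with differences of 0.64 and 0.48 in that fit, had an adjusted p = 0.00829 each in limma. Gng13 had an adjusted p = 0.0108 without the library but 0.204 with the trend removed too. Rplp1 likewise went from 0.0173 to 0.233 in limma.

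**Figure D5:**
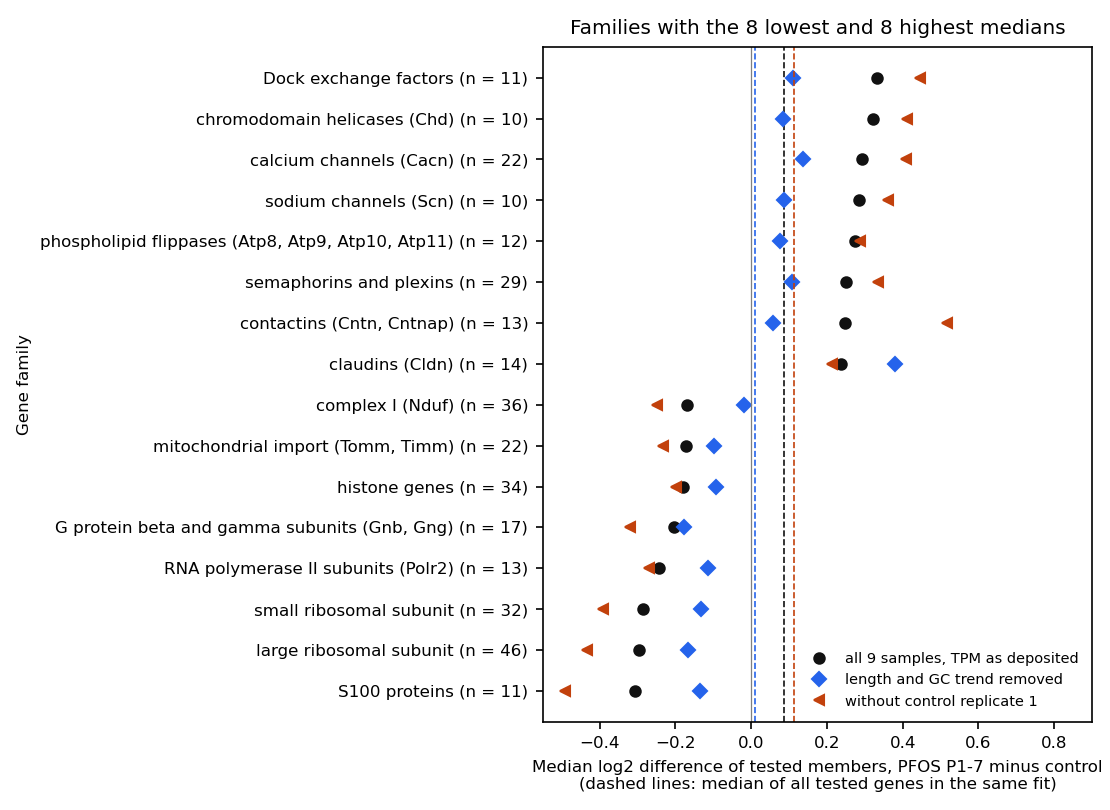
Median log2 difference (PFOS P1-7 minus control) of the tested members of each described family in 3 fits: TPM as deposited, length and GC trend removed, and without control replicate 1, with dashed lines for all tested genes. Without the trend the medians move toward 0 in every family but the claudins (0.24 to 0.38), as for complex I from -0.17 to -0.02, whereas without control replicate 1 most move away from 0, as for the large ribosomal subunit to -0.43.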

How the data were processed

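The authors deposited 1 table of TPM per gene symbol, a length-scaled abundance whose columns each sum to 1000000 within rounding, with 2 decimals. STAR 2.5.3a, RSEM 1.3.3, fastp 0.21.0, bcl2fastq and the build mm10 are named in, and credited per, the submitters' processing notes. The gene annotation is not given in the sources used here. Per the labels' protocols, stranded poly(A) libraries were made from total RNA.

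Log2(TPM + 1) was fitted for genes reaching 1 TPM in 3 or more of 9 samples with limma 3.58.1 (R 4.3.3), with 3 group means, moderated variances with a mean-variance trend, two-sided tests and Benjamini-Hochberg adjustment. Families were defined by symbol and are described by counts and medians, with no test of their own. Gene families, lists and members were chosen with earlier results of these data known. Named genes were the 10 per direction with the smallest p, and the 10 per direction with the largest difference among p below 0.01 with groups apart. Both needed a mean of at least 5 TPM and excluded predicted and RIKEN genes. Added to these were 2 members of each of the 8 highest and 8 lowest families of at least 10 members, genes listed in 1 group only, and 6 sample checks. Other genes were named after their values were seen.

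Trends on length and GC content were removed from every library by loess (span 0.5). Length came from GENCODE vM21 in 2 definitions: first the median over protein-coding transcripts, then the APPRIS principal transcript. The second replaced the first after results of both were seen, because medians were short for genes with many truncated transcripts, and both are given for counts of calls and for class and family medians. Single genes have the principal length only. A total of 28 alternatives were run. Of these, 8 were added after the data were seen, and the principal length in the planned ones was also chosen then. Promoters came from RefSeq (GRCm38.p6). The pipeline was tested on simulated data.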

Additional observations from a re-analysis of the deposited data

How the results depend on the processing

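The 0 genes called by limma with all libraries also held for pseudocounts of 0.1 and 5 TPM, for no filter and a filter at 5 TPM, for median-of-ratios and quantile scaling, for the 6 samples alone and for no variance trend. Leaving out single replicates gave 0 to 2658 calls, the last without control replicate 1. Array weights, which gave that library 0.248 against 0.655 to 1.74 for the others, led to 2914. Without control replicate 1, 2119 genes were called with median-of-ratios scaling, 977 after removal of the length and GC trend and 1483 with median transcript lengths. Array weights with the trend removed led to 113 and, with median transcript lengths, 710. The trend removed without PFOS P1-7 replicate 1 gave 1. Higher genes at an unadjusted p below 0.05 (1797) ranged from 847 to 3604 over left-out replicates (without control replicate 2 and control replicate 1), and were 1031 with median-of-ratios scaling, 1043 with quantile normalization, 3915 with array weights, 931 with the trend removed and 1002 with median transcript lengths. With the trend removed they were 575 and 654 without control replicates 2 and 3, and 636, 878 and 719 without PFOS P1-7 replicates 1, 2 and 3. Lower genes (830) ranged from 503 to 1268 over left-out replicates, and were 1417 with median-of-ratios scaling, 1329 with quantile normalization and 1434 with array weights. They were 1575 with the trend removed without control replicate 1, 1475 with the trend removed and array weights, 2270 with median-of-ratios scaling without control replicate 1, and 1918 and 1870 with median transcript lengths without that library and with array weights.

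The median difference of all genes (0.09) was 0.011 with median-of-ratios scaling, 0.0047 with quantile normalization and 0.0064 with the first of these without control replicate 1. With the trend removed it was 0.00998, 0.0092 without control replicate 1, 0.011 with array weights, 0.010 and 0.0029 without control replicates 2 and 3, and 0.0083, 0.0080 and 0.0087 without PFOS P1-7 replicates 1, 2 and 3. With median transcript lengths it was 0.0049, -0.00095 without control replicate 1 and 0.0020 with array weights. Of 72 named genes, 2 changed sign under any alternative: Cldn12 to -0.0051 (trend removed without PFOS P1-7 replicate 1) and -0.0047 (median transcript lengths, array weights), and Tcf7l2, which ranged from -0.40 to 0.030 over left-out replicates. The cause was not tested. With the replicate number as a block, limma called 0 genes, with 2094 higher and 1018 lower at an unadjusted p below 0.05. Same-numbered samples deviated together with r = -0.03, 0.23 and 0.51, so the numbers were not taken as pairs. Median transcript lengths were tried first, and the principal length behind the other values with the trend removed was chosen after seeing the data, as was removing the trend while leaving out a library other than control replicate 1. Depth is unknown for TPM, so no counting error could be given.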

Other observations

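Other families are described here, and the genes named were chosen after their values were seen. Of all tested genes 65.5% were higher, and 12.5% were higher at an unadjusted p below 0.05. Krüppel-like factor genes encode zinc finger transcription factors. Of 14 tested, 13 were higher, 6 with an unadjusted p below 0.05, with a median log2 difference of 0.21. Their median deviations from the 6-library mean were 0.06, -0.16 and -0.27 in control and 0.18, 0.23 and 0.15 after exposure. Klf9, a target of glucocorticoid and thyroid hormone, stood at 153, 102 and 97.6 TPM in control and at 184, 176 and 171 TPM after exposure, a difference of 0.61 ± 0.15. Klf3 stood at 20.3, 13.7 and 11.8 TPM and at 26.7, 24.9 and 24.1 TPM. In both genes the groups did not overlap and control replicate 1 was the control nearest to the exposed libraries. The Klf median was 0.08 without the length and GC trend, and 0.28 with the trend taken on median transcript lengths.

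Calcium pump genes clear calcium from the cytosol. Of 8 tested, 7 were higher, with a median of 0.33 and of 0.19 or 0.22 without the trend in these definitions. Atp2b1, a plasma membrane pump gene, stood at 312, 265 and 272 TPM in control and at 344, 447 and 412 TPM after exposure. Atp2b3 stood at 118, 51.2 and 51.9 TPM and at 133, 124 and 105 TPM, with control replicate 1 within the exposed range. Of 67 protocadherin genes, which encode neuronal adhesion proteins, 60 were higher, 19 with an unadjusted p below 0.05, with a median of 0.23 and of 0.10 or 0.09 without the trend. Reads of the clustered protocadherins may be shared between copies. Of 328 Zfp genes 250 were higher, with a median of 0.11, near the 0.09 of all genes.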
